A study of Eriocheir sinensis with 6 samples.

Results

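The 13782 accessible regions described here are the merged ATAC-seq peaks linked to genes that carry at least 30 peaks each, found by counting how often each gene identifier recurs in the deposited table. The rule kept 320 of 17908 linked genes (1.79%) and 13782 of 104657 merged peaks (13.2%). At the edge of the rule stood 35 genes with exactly 30 linked peaks, just inside, and 24 genes with 29, just outside. Muscle of the Chinese mitten crab (Eriocheir sinensis) was sampled after the shed of the exoskeleton (post-molt, 3 libraries) and before it (pre-molt, 3 libraries). According to the study's methods the crabs were juveniles, the tissue was walking-leg muscle and each sample came from a different crab. The labels name no strain, treatment, age or sex for any of the animals. The comparison asks where chromatin accessibility in muscle differed between these stages, and fold changes divide the post-molt by the pre-molt value.

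ATAC-seq uses the Tn5 transposase, which cuts DNA that is free of nucleosomes and inserts sequencing adapters there, so read pile-ups mark promoters, enhancers and other open elements. A promoter lies beside the start site of its gene, whereas enhancers can act from far upstream or downstream or from within introns, and a peak far from any gene is usually assigned to the nearest start site only for want of better evidence. Crustacean muscle is remodelled around the molt, claw muscle most of all, and the cycle is driven by ecdysteroid hormones, which act through nuclear receptors that bind DNA. Linkage in the table is by position, and no peak was shown to act on the gene it is linked to. In bulk tissue, fewer nuclei of a cell type and less open chromatin per nucleus cannot be told apart.

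The gene identifiers are unnamed gene models, none of which matched the reference gene table, so genes are given here by sequence name and gene model coordinates in the assembly of the deposited table, with no function. The labelled tissue could therefore not be checked against muscle markers, and none of 14 genes that the study lists under G protein-coupled receptor signalling, not all of them receptors, was among the 320. The libraries held 42955326 to 48100048 reads post-molt and 41050903 to 51652893 pre-molt. Merged peaks took 24.68% to 26.31% of the reads post-molt and 23.82% to 36.69% pre-molt, the highest share being that of pre-molt replicate 2. Peaks of the 320 genes took 13.11% to 13.82% of peak reads post-molt and 13.08% to 14.50% pre-molt, so the stages overlapped in this share.

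The linked peaks of the 320 genes covered long stretches of sequence around gene models of ordinary length. Their linked peaks spanned a median of 188 kb (quartiles 137 and 294 kb, range 67.8 to 1640 kb), against 22.8 kb for the other genes with at least 2 peaks. The gene models themselves had a median length of 7942 bp, against 7986 bp for the other genes, and 105 of the 320 (32.8%) were shorter than 2 kb, against 21.3% of the others. The number of peaks per gene had a median of 37 and reached 212, at a median density of 21.1 peaks per 100 kb (range 4.21 to 47.0). In all 320 genes the linked peaks formed an unbroken run of merged peaks, with no peak of another gene in between. The genes lay on 88 sequences, 26 of them on CM024137.1 and 16 on CM024130.1, where they held 1545 of 3281 and 798 of 1508 merged peaks. A further 33 lay on unplaced scaffolds.

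**Figure D1:**
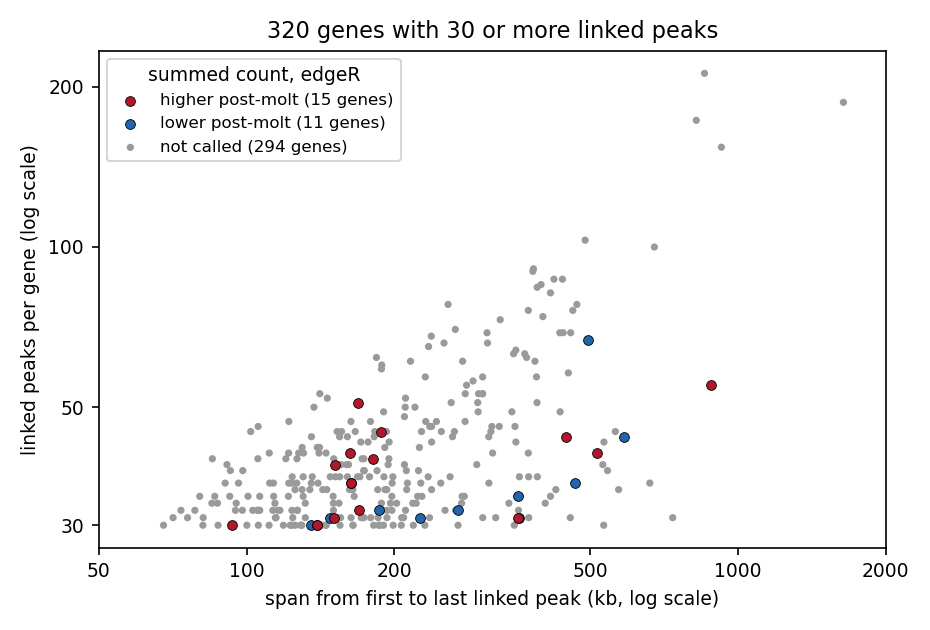
Span from the first to the last linked peak (kb, log scale) against the number of linked peaks (log scale) for the 320 genes, each point a gene, coloured by the edgeR call of its summed count. The called genes, 15 higher and 11 lower post-molt, lie among the rest, and none of the genes with more than 100 linked peaks was called.

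The peaks were mostly intergenic. Distal intergenic peaks made up 80.3% of the member peaks, against 49.1% of the peaks of other genes, and promoter peaks, up to 3000 bp from a start site, made up 3.77% (520 peaks), against 21.8%. Introns held 13.9% of member peaks, against 21.0%, and exons 1.39%, against 5.47%. In 175 genes (54.7%) at least 90% of the linked peaks were distal intergenic, in 49 genes at least 50% were intronic, and in 49 genes all peaks lay on the same side of the start site. No promoter peak was linked to 59 genes (18.4%), against 30.2% of the other genes. An intronic label did not always refer to the linked gene: 604 of 1917 intronic member peaks (31.5%) lay in an intron of another gene model, close to the 31.1% among other genes, and in 18 genes such peaks made up at least 50%. Member peaks were a little wider than the others (median 364 against 345 bp) and held more reads (median of the mean count 62.2 against 50.8). MACS2 had found 20.5% of them in all 6 libraries, against 18.9%, and 37.4% in only 1 library, against 43.0%.

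Peak by peak, the member regions changed about as often as the genome at large. A peak is called here where edgeR's quasi-likelihood test gave a Benjamini-Hochberg adjusted p below 0.05 over all 104657 peaks. Of the 13782 member peaks 1389 (10.1%) were called, against 9.95% of all peaks. Higher post-molt were 822 (5.96%, against 6.08% of all peaks) and lower were 567 (4.11%, against 3.86%). The higher calls had a median log2 change of 1.65 and a median mean count of 59.3 reads, whereas the lower calls had a median of -1.38 and 164 reads. How the calls divided between directions varied with the scaling. Centring each library on its median peak moved the median log2 change of all peaks to -0.15, against -0.03, and gave 639 member peaks higher and 707 lower. The count also varied with single libraries. It fell to 578 calls when post-molt replicate 2 was left out, to 769 (334 higher, 435 lower) when it was pre-molt replicate 3 and to 915 when it was post-molt replicate 3. The share of all peaks called fell as well, from 9.95% to 3.82%, 5.62% and 6.79% in that order.

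Among the classes, member promoter peaks gave 22 higher and 29 lower calls of 520 (4.23% and 5.58%), where promoter peaks of other genes gave 4.92% and 3.49%. Intronic member peaks gave 9.86% higher and 5.84% lower, against 8.64% and 4.33%. Distal intergenic member peaks, the bulk of the set, gave 5.35% higher and 3.83% lower, against 5.72% and 3.88%. By distance from the start site, the share called higher was 6.55% at 3 to 10 kb, 5.87% at 10 to 50 kb, 7.12% at 50 to 100 kb and 4.30% at 200 to 500 kb. Over the same bins all peaks gave 6.91%, 6.72%, 5.94% and 3.79%, and none of these shares was tested against another.

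The share of peaks called was also read by how crowded the gene was. Where a gene had 30 to 39 peaks, 11.8% of its peaks were called over the 193 such genes, at 40 to 59 peaks 10.5% over 89 genes, and at 60 or more 6.14% over 38 genes. The median SD of the log2 change among the peaks of a gene was 0.64, 0.60 and 0.47 in these 3 classes. No test of this trend was made, since peaks of a gene share their locus. Several genes with 60 or more peaks lay on CM024137.1, where those with 173, 100, 90, 87 and 74 peaks had no called peak. The most called peaks among them was 5, in a gene with 61 peaks. The part of that sequence in the lower share was not tested.

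The 5 genes with the most linked peaks showed little difference between the stages. The short gene model at CM024126.1:407957-409255 carried 212 peaks over 855 kb, 211 of them distal intergenic. Its summed accessibility, in read counts scaled to library size (CPM), was 1995, 1275 and 1623 in post-molt replicates 1, 2 and 3, against 2214, 1350 and 1848 in pre-molt replicates 1, 2 and 3 (log2 change -0.15, SE 0.26, edgeR adjusted p = 0.787), so the libraries overlapped. No peak of this gene was called higher and 4 were called lower. The gene model at CM024130.1:10587810-10588570 had the longest span, with 187 peaks over 1640 kb, 179 of them upstream. It summed to 950, 1032 and 1283 CPM post-molt, against 1348, 969 and 952 CPM pre-molt, and 1 of its peaks was called, lower, 1070 kb from the start site. The other genes of this group, on CM024137.1 (173 peaks), JACDRO010003269.1 (154) and CM024135.1 (more than 100), had gene models of 444, 448 and 486 bp, log2 changes of the sum between -0.13 and 0.02, and no called peak.

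To give each gene a value of its own, the counts of all its linked peaks were summed and tested over all 17908 genes. Of the 320 sums 26 (8.12%) were called, against 11.0% of all genes, with 15 higher (4.69%, against 6.9%) and 11 lower (3.44%, against 4.11%). The median log2 change was -0.10 over the 320 and -0.03 over all genes. The libraries of the stages did not overlap in 80 of the 320 genes (25%, against 29.4% of all genes) and in 24 of the 26, which were called on these same libraries. This split was 9 higher and 21 lower with median centring, 5 and 6 with library totals, 16 and 19 with loess-scaled counts, and 14 and 11 with DESeq2 size factors. It was 20 and 24 with the DESeq2 test, which changes the test as well as the size factors, and 8 and 21 without pre-molt replicate 3. Leaving out post-molt replicate 2 left 11 calls of 320, against 5.5% of all genes, and leaving out pre-molt replicate 1 left 17, against 9.24%. Without pre-molt replicate 2 there were 32 of 320, against 8.11% of all genes, and without pre-molt replicate 3 there were 29, against 6.56%. The DESeq2 test called 44, against 13.5%, and loess-scaled counts gave 35, against 10.8%. Whether the 320 were called less often than all genes therefore varied with the setting.

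Of the genes that rose, evm.TU.CM024160.1.458 (CM024160.1:17312352-17336138) had the smallest p. Its 45 linked peaks summed to 256.1, 244.3 and 245.4 CPM post-molt, against 62.2, 55.7 and 60.6 CPM pre-molt, and the libraries of each stage lay close together. The log2 change was 2.06 (SE 0.22, edgeR adjusted p = 0.000199). All 45 peaks had a positive log2 change and 38 were called higher. The called peaks all lay upstream, 25.6 to 184 kb from the start site, and among the 42 peaks that they enclosed none was called lower. In the peak with the smallest p (CM024160.1:17133177-17133493) accessibility was 5.16, 4.10 and 13.6 CPM post-molt, against 0.487, 1.19 and 0.174 CPM pre-molt (log2 change 3.56, SE 0.56, edgeR adjusted p = 0.000591). It was in 1 of the 6 libraries' peak lists and held only 6, 17 and 2 reads in pre-molt replicates 1, 2 and 3. The log2 change of this peak was 2.85 without post-molt replicate 3 and 4.49 without pre-molt replicate 2, and it was called in both cases. The gene's only promoter peak, in 1 of the 6 libraries' peak lists, had 2.15, 2.995 and 1.34 CPM post-molt, against 0.487, 0.420 and 0.783 CPM pre-molt. These groups did not overlap either, but the promoter sum did not pass the test (edgeR adjusted p = 0.0604).

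The second was evm.TU.CM024158.1.283 (CM024158.1:11184934-11192161), with 44 peaks over 446 kb. It summed to 253, 875 and 329 CPM post-molt, against 138, 118 and 115 CPM pre-molt (log2 change 1.98, SE 0.37, edgeR adjusted p = 0.00376). Post-molt replicate 2 stood far above the other post-molt libraries, and without it the sum was still called but with a log2 change of 1.24 (edgeR adjusted p = 0.0087). The 26 higher peaks formed a stretch of 127 kb on either side of the start site, with 33 peaks inside and none lower. A peak 141 kb downstream was called lower, with 11.0, 6.39 and 8.94 CPM post-molt, against 12.5, 41.0 and 14.4 CPM pre-molt (log2 change -1.37, edgeR adjusted p = 0.0306). That call rested on pre-molt replicate 2, without which the log2 change was -0.60 (edgeR adjusted p = 0.273), and was lost under 7 of 15 alternatives. In its strongest peak (CM024158.1:11158596-11161104) accessibility was 31.4, 169 and 55.1 CPM post-molt, against 10.4, 6.44 and 10.7 CPM pre-molt (log2 change 3.22, SE 0.47, edgeR adjusted p = 0.000342, and 2.24 on the log2 scale without post-molt replicate 2). The gene on CM024103.1 (gene model 5409549-5409887, 36 peaks) had the same imbalance, with 112, 272 and 119 CPM post-molt, against 64.0, 43.2 and 54.1 CPM pre-molt (log2 change 1.64, SE 0.32, edgeR adjusted p = 0.00465). All its peaks lay upstream, and 18 were called higher, from 0.123 to 139 kb.

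The remaining loci with the smallest p among those that rose were more even between libraries. On CM024159.1 (gene model 4147638-4285185) 39 peaks, 35 of them intronic, summed to 391, 493 and 373 CPM post-molt, against 141.3, 222.1 and 175.6 CPM pre-molt (log2 change 1.22, SE 0.24, edgeR adjusted p = 0.00515), and 25 were called higher. Of these peaks 53.8% lay in introns of another gene model. On CM024146.1 (gene model 22425927-22435173) 51 peaks summed to 838, 788 and 751 CPM post-molt, against 411, 401 and 260 CPM pre-molt (log2 change 1.15, SE 0.24, edgeR adjusted p = 0.0071), with 25 called higher. On CM024153.1 (gene model 7012262-7023964) 40 peaks summed to 213, 275 and 184 CPM post-molt, against 97.0, 105 and 112 CPM pre-molt (log2 change 1.09, SE 0.23, edgeR adjusted p = 0.00668), but only 10 of them were called. With library totals in place of TMM factors the calls on CM024159.1 and CM024153.1 were lost (edgeR adjusted p = 0.0585 and 0.0683). In these 3 genes the promoter sums rose as well, by log2 1.57, 1.72 and 1.65 on CM024159.1, CM024146.1 and CM024153.1.

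**Figure D2:**
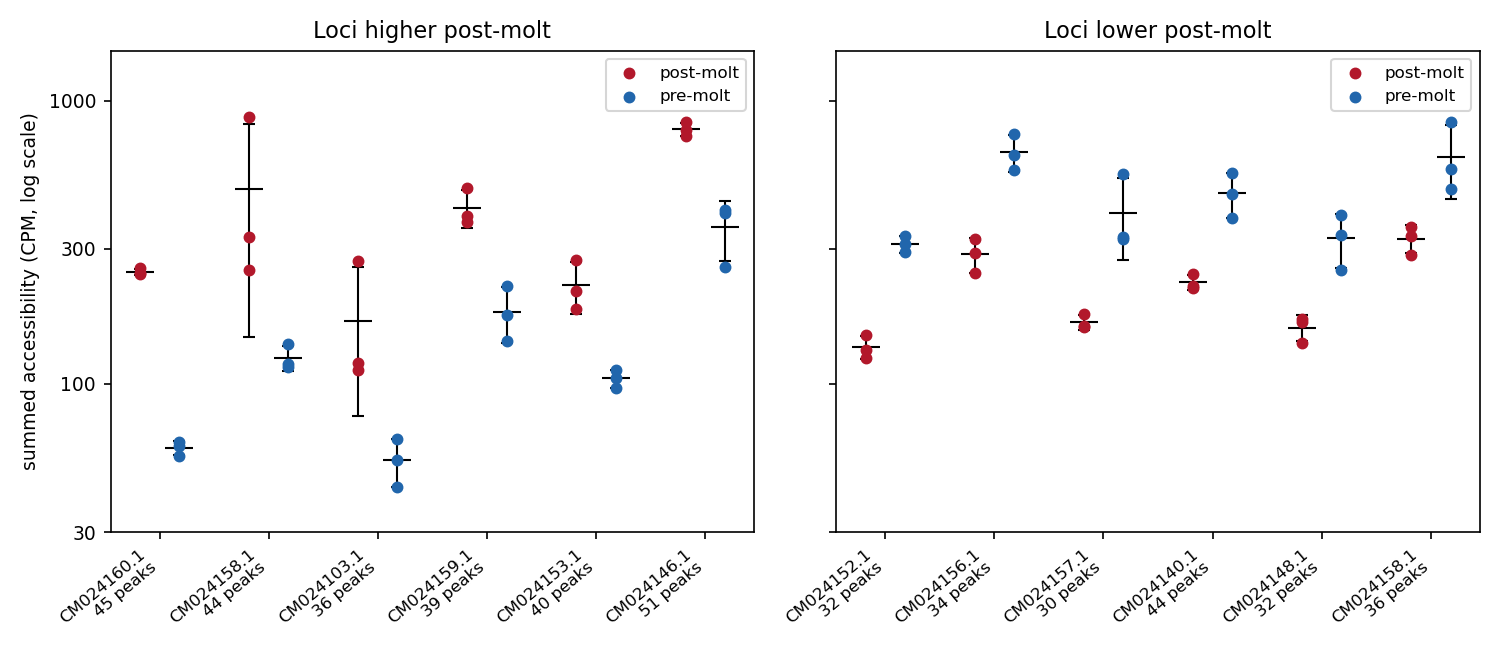
Summed accessibility of all linked peaks (CPM, log scale) in the 6 loci with the smallest p among those that rose (left panel) and among those that fell (right panel). Points are libraries, post-molt left of pre-molt, and the bars give mean and SD of 3 libraries. The stages do not overlap in any of the 12 loci, which were chosen by p in these same libraries. Post-molt replicate 2 is the high point on CM024158.1 (875 CPM, 44 peaks) and CM024103.1 (272 CPM).

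Of the genes that fell, evm.TU.CM024152.1.81 (CM024152.1:2327381-2328784) had the smallest p. Its 32 peaks summed to 149, 124 and 132 CPM post-molt, against 334, 311 and 291 CPM pre-molt (log2 change -1.21, SE 0.22, edgeR adjusted p = 0.003). The gene model is 1404 bp long, and 30 of the peaks were intronic, all of them in introns of another gene model (93.8% of the 32 peaks). Accessibility in its strongest peak (CM024152.1:2240092-2241363), 86.0 kb upstream, was 11.6, 9.54 and 9.36 CPM post-molt, against 49.6, 69.0 and 64.1 CPM pre-molt (log2 change -2.58, SE 0.31, edgeR adjusted p = 7.84e-05). The promoter peak had 4.65, 4.73 and 5.51 CPM post-molt, against 9.57, 7.42 and 9.48 CPM pre-molt, and was not called (edgeR adjusted p = 0.12).

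The gene model of evm.TU.CM024156.1.455 (CM024156.1:15305419-15307038) was linked to 34 peaks over 357 kb. They summed to 325, 245 and 290 CPM post-molt, against 640, 761 and 568 CPM pre-molt (log2 change -1.20, SE 0.23, edgeR adjusted p = 0.00466). All but 1 of the peaks had a negative log2 change and 13 were called lower, spread from 1.5 to 272 kb from the start site. Here the promoter sum fell with the rest, to 20.1, 17.2 and 12.4 CPM post-molt, against 41.0, 55.9 and 36.02 CPM pre-molt (log2 change -1.42, SE 0.30, edgeR adjusted p = 0.00282). On CM024157.1 a long gene model (5220931-5407688) held 22 of its 30 peaks in introns. It summed to 159, 160 and 177 CPM post-molt, against 330, 551 and 326 CPM pre-molt (log2 change -1.28, SE 0.25, edgeR adjusted p = 0.00481). The 11 lower peaks lay 7.59 to 37.3 kb from the start site, and pre-molt replicate 2 was the highest library.

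The other falling loci named here were those on CM024140.1 (gene model 6252986-6276689, 44 peaks), CM024148.1 (9192928-9215829, 32 peaks) and CM024158.1 (21699877-21700587, 36 peaks). Their sums changed by log2 -1.04, -1.05 and -0.96 (SE 0.23, 0.23 and 0.25, edgeR adjusted p = 0.0084, 0.0096 and 0.0215), with 16, 12 and 12 peaks called lower. The call on CM024148.1 was lost without post-molt replicate 2 (edgeR adjusted p = 0.0612), that on CM024158.1 without post-molt replicate 2 or 3 (0.116 and 0.0801), and that on CM024140.1 without post-molt replicate 3 (0.0511) or with only the peaks within 50 kb of the start site (0.102). The remaining called sums were 8 that rose, by log2 0.79 to 1.41, 4 that fell, by log2 -0.78 to -1.08, and 2 loci described further on.

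In most genes with a called peak the sum was not called. At least 1 called peak was linked to 223 of the 320 genes (69.7%, against 23.3% of all genes), and in 197 of these (88.3%, against 59% over all genes) the sum was not called. Of the 45 genes with at least 10 called peaks 28 (62.2%) had no call of the sum, against 4 of 56 other genes (7.14%). In 81 genes (25.3%, against 1.85% of all genes) peaks were called in both directions, and in 15 genes (4.69%, against 0.112%) at least 3 in each. The other genes have fewer linked peaks that could be called, at most 29. The same number of called peaks is therefore a larger part of the peaks in their sums, so the groups are not alike. Of 195 genes with at least 2 called peaks, 114 (58.5%) had all of them in the same direction, against 84.0% of all genes with at least 2 called peaks. At like numbers of called peaks the shares were 67.2% against 87.4% of other genes at 2 to 3 called peaks, 56.0% against 83.5% at 4 to 6, and 56.7% against 91.0% at 7 to 12. None of these shares was tested. Among all member peaks, 69.1% of the variance of the log2 change lay within genes. Across pairs of peaks of a gene, Pearson's r of the log2 change was 0.56 for neighbours (median distance 2.95 kb), 0.40 for peaks 5 places apart (21.0 kb) and 0.26 for peaks 20 places apart (91.2 kb), where peaks are not independent and share their libraries.

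**Figure D3:**
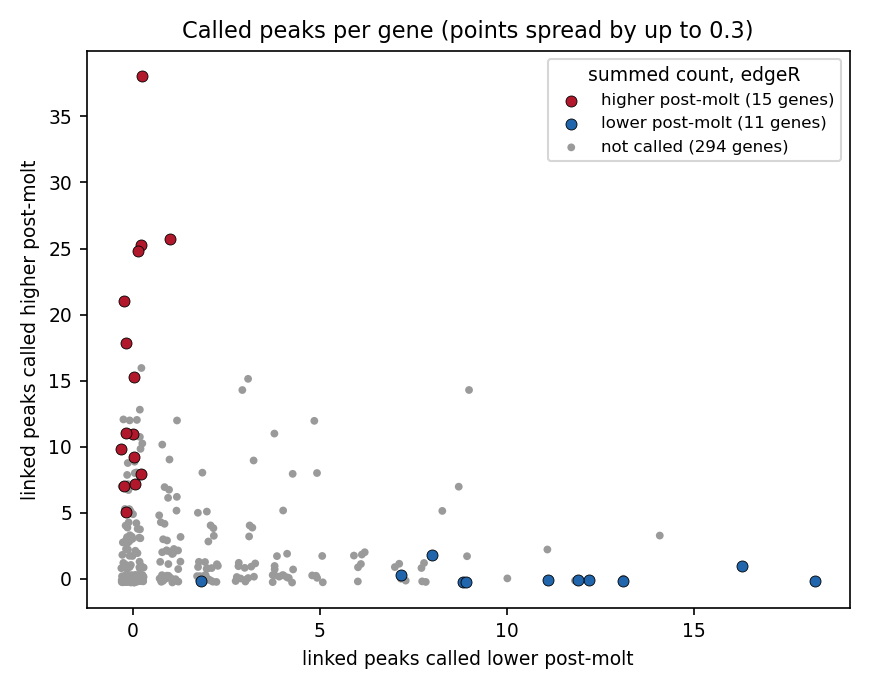
Number of linked peaks called lower (x axis) and higher (y axis) post-molt in each of the 320 genes, with points spread at random by up to 0.3 so that they can be seen. Most genes whose sum was called lie on or close to an axis, and 81 genes have called peaks in both directions.

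A few loci chosen after their values were seen show the pattern. On CM024166.1 (gene model 12034200-12079145) 14 of 84 peaks were higher and 9 lower, and the sum was 722, 685 and 590 CPM post-molt, against 677, 784 and 641 CPM pre-molt (log2 change -0.07, SE 0.22, edgeR adjusted p = 0.884). Of the 15 peaks within 50 kb of the start site 7 were higher and none lower. Summed alone they had 104, 95.7 and 85.5 CPM post-molt, against 37.2, 61.0 and 50.8 CPM pre-molt (log2 change 1.00, SE 0.22, edgeR adjusted p = 0.00971). All 9 lower peaks lay farther out, 80.0 to 354 kb upstream. Beyond 50 kb 7 peaks were called higher as well, up to 368 kb from the start site.

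On CM024140.1 the gene model at 7440302-7442800 had all of its 45 peaks upstream, over 563 kb. The sum was 227, 273 and 225 CPM post-molt, against 309, 289 and 226 CPM pre-molt (log2 change -0.18, SE 0.22, edgeR adjusted p = 0.667). The 8 peaks within 50 kb summed to 26.6, 55.4 and 29.3 CPM post-molt, against 10.2, 10.6 and 12.9 CPM pre-molt (log2 change 1.78, SE 0.28, edgeR adjusted p = 0.00189), with no overlap between the stages. Higher peaks were not confined to this part. Of the 14 called higher, 4 lay within 50 kb and 10 beyond it, up to 355 kb from the start site. At the far end, 572 to 574 kb from the start site, 3 peaks were lower. The strongest of them (CM024140.1:6868011-6868669) had 26.7, 31.1 and 27.1 CPM post-molt, against 64.7, 72.7 and 42.6 CPM pre-molt (log2 change -1.09, SE 0.30, edgeR adjusted p = 0.0247), and its call was lost under 7 of 15 alternatives, with an adjusted p of up to 0.114. The peak with the smallest p (CM024140.1:6866637-6867160) had 4.56, 8.2 and 7.27 CPM post-molt, against 56.1, 48.2 and 41.6 CPM pre-molt. Its call (log2 change -2.86, SE 0.33, edgeR adjusted p = 7.46e-05) was kept under all 15 alternatives.

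On CM024142.1 (gene model 14502787-14533585) 12 of 39 peaks were higher and none was lower, yet the sum was 329, 391 and 341 CPM post-molt, against 222, 413 and 295 CPM pre-molt (edgeR adjusted p = 0.697). A promoter peak held 39.7% of the reads of this locus. It had 118, 96.6 and 110 CPM post-molt, against 95.0, 230 and 138 CPM pre-molt, and was not called (log2 change -0.51, SE 0.32, edgeR adjusted p = 0.354). Without the promoter peaks the locus rose, with 156, 256 and 162 CPM post-molt, against 72.5, 95.8 and 93.7 CPM pre-molt (log2 change 1.13, SE 0.26, edgeR adjusted p = 0.0111, and 0.0855 without post-molt replicate 2). Over the 320 genes the strongest peak held a median of 14.7% of the reads (range 3.40% to 53.2%), and the median peak and the sum had log2 changes of opposite sign in 56 genes. Leaving the strongest peak out of every sum gave 26 calls, against 10.7% of the 13920 genes then tested. Of these 16 were higher and 10 lower, against 15 and 11 with all peaks, so the called genes were not all the same.

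**Figure D4:**
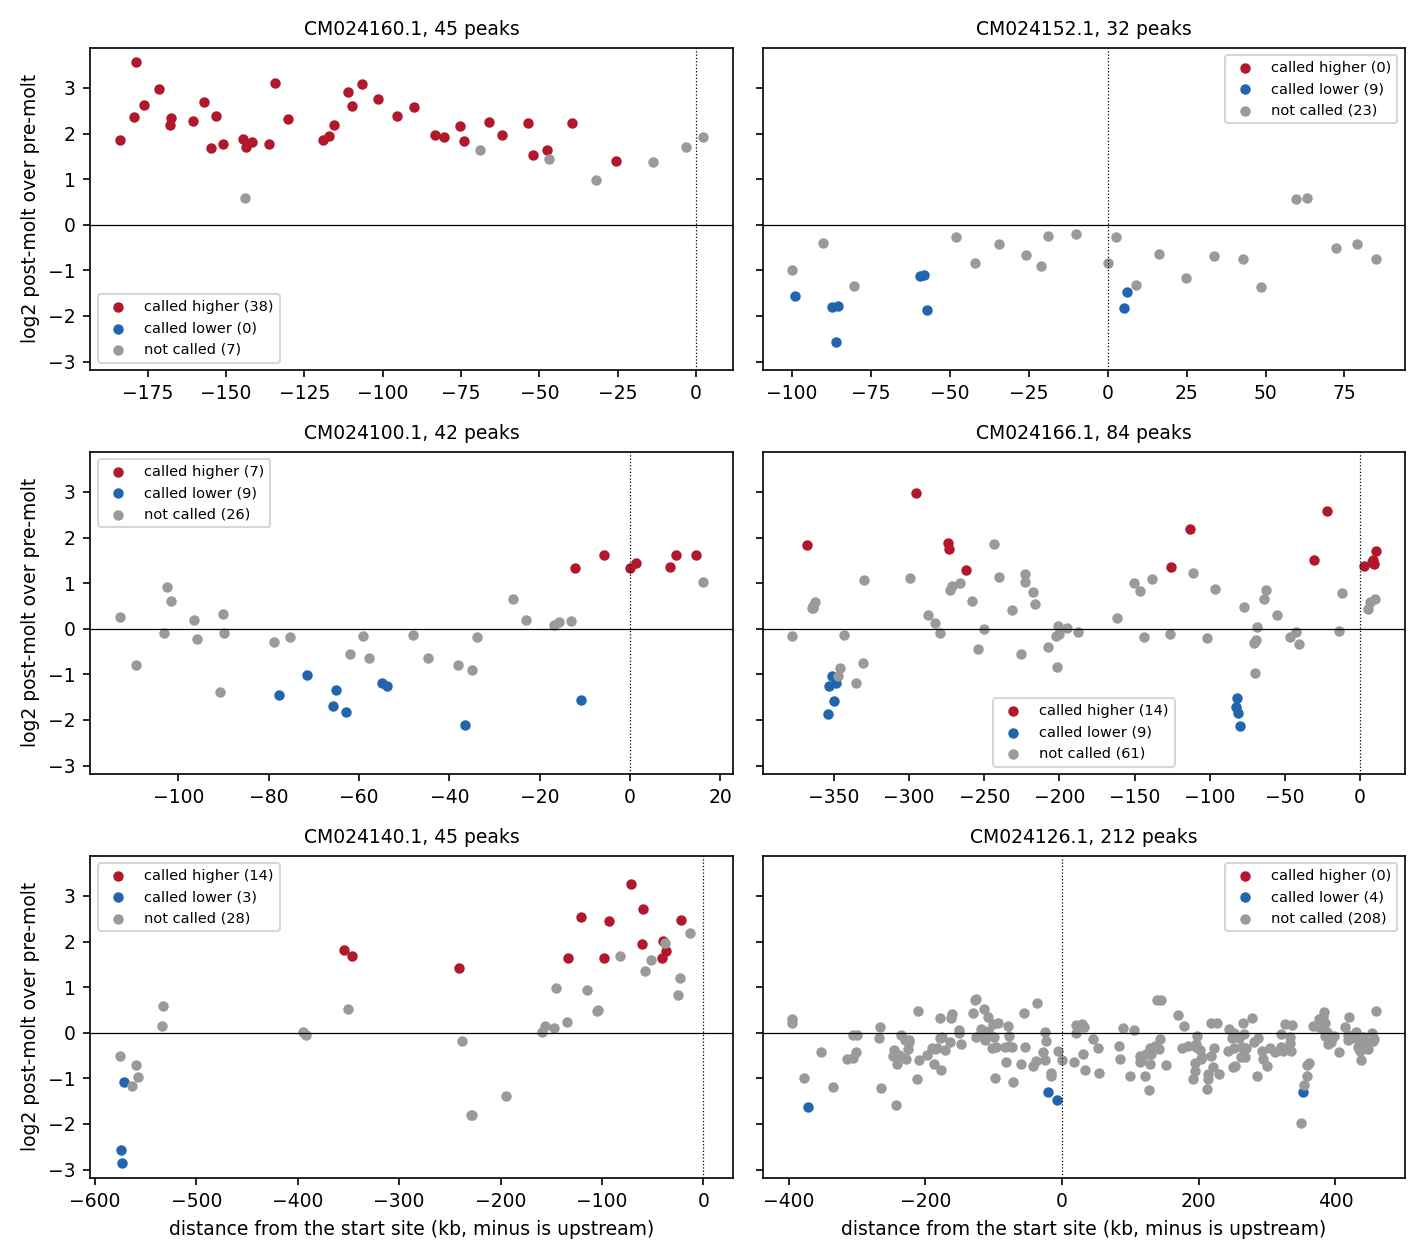
Log2 change of each linked peak (post-molt over pre-molt) against its distance from the start site (kb, minus is upstream) at 6 loci, each point a peak, red where called higher, blue where called lower and grey otherwise. On CM024160.1 all 45 peaks lie above 0. On CM024100.1 and CM024140.1 higher peaks lie nearer the start site than most or all lower peaks, and on CM024166.1 lower peaks sit in separate clusters among higher ones. On CM024126.1 no peak of 212 is called higher.

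The promoter of a gene and its other linked peaks could be compared in 261 of the 320 genes. Of the promoter sums 30 (11.5%) were called, against 8.93% of all promoter sums, 10 of them higher (3.83%, against 5.0%) and 20 lower (7.66%, against 3.93%). With loess-scaled counts, a setting added once the data had been examined, the split was 17 higher and 19 lower. Of the sums of other peaks 29 of 320 (9.06%) were called, against 10.8%, with 16 higher (5.0%, against 6.52%) and 13 lower (4.06%, against 4.26%). Without pre-molt replicate 2 there were 45 of 320, against 8.4% of all such sums, so the order of these shares varied with the setting. In the 261 genes, promoter and other peaks were called higher together in 5, lower together in 6 and in opposite directions in 0. Only the promoter sum was called in 19 genes (5 higher, 14 lower), only the other sum in 13 (9 higher, 4 lower) and neither in 218. These joint counts were not taken over all genes with both kinds of peak, so whether they are particular to the 261 was not tested. The signs of the log2 changes matched in 179 of 261 genes (68.6%), against 66.5% of all genes with both kinds of peak, and Pearson's r across genes was 0.52, against 0.51, where genes are not independent replicates.

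Whether the promoter changed differently from the rest was tested in a model of peak kind by stage, with the library as block. The difference was called in 29 of 261 genes (11.1%), against 3.72% of all 8837 genes with both kinds. The promoter change was more positive in 8 (3.07%, against 1.39%) and more negative in 21 (8.05%, against 2.33%), with differences between -1.61 and 1.79. The sums of the 261 genes also held more reads: the median was 3760 reads per library in other peaks, against 231 in other genes, and 284 in promoter peaks, against 152. The part of these read numbers in the higher share was not tested. In 23 of the 29 genes promoter and other peaks had opposite signs, and in 16 of those the promoter was below 0 and the other peaks above. Genes called for a difference in change tend to have opposite signs by that choice, and this share was not taken over all genes. In only 12 of the 29 was the promoter sum or the other sum itself called. The number of called differences was 1 when pre-molt replicate 3 was left out, 2 when post-molt replicate 2 was, 5 when post-molt replicate 3 was and 12 when post-molt replicate 1 was. The share over all genes then also fell, to 0.136%, 0.113%, 0.554% and 1.12%. With loess-scaled counts 11 were more positive and 12 more negative.

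**Figure D5:**
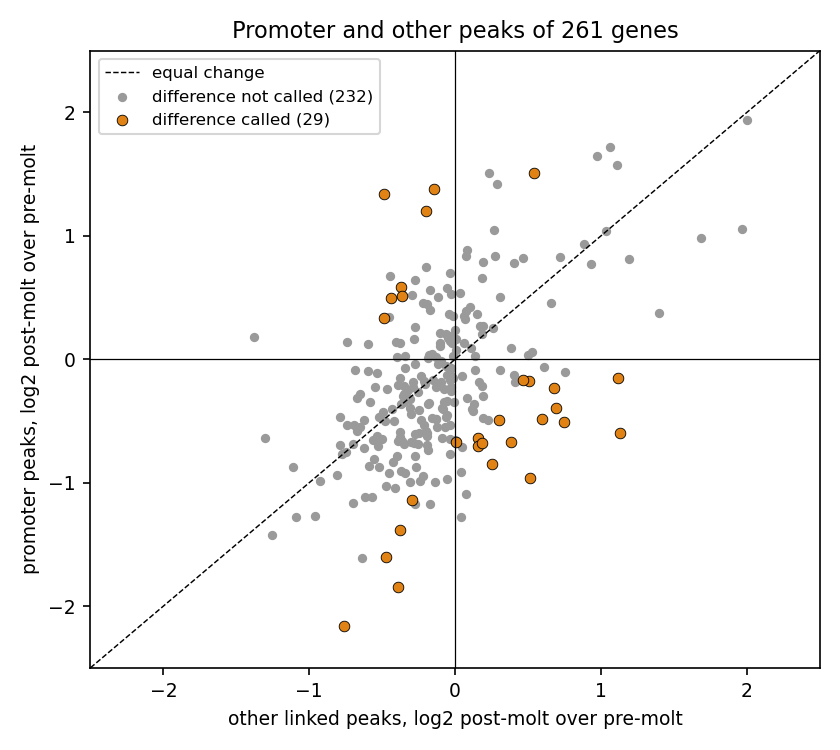
Log2 change (post-molt over pre-molt) of the summed promoter peaks against that of the summed other linked peaks in 261 genes, with the line of equal change dashed. The 29 genes whose difference was called are in orange, and 21 of them lie below the line, where the promoter change was the more negative.

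The clearest difference was on CM024100.1 (gene model 13264442-13265088, 647 bp). Its promoter peaks rose, with 98.0, 94.2 and 67.6 CPM post-molt, against 34.4, 36.3 and 31.9 CPM pre-molt (log2 change 1.34, SE 0.29, edgeR adjusted p = 0.0035). The other 40 peaks gave 543, 507 and 516 CPM post-molt, against 706, 902 and 586 CPM pre-molt, and were not called (log2 change -0.49, SE 0.24, edgeR adjusted p = 0.216). The difference was 1.79 (SE 0.19, edgeR adjusted p = 0.00501) and was the only one of the 4 named here that was called under every alternative run. Along the locus, 7 higher peaks lay within 14.7 kb of the start site and 9 lower peaks 10.8 to 77.8 kb upstream. The sum of the whole locus was not called (log2 change -0.27, SE 0.23, edgeR adjusted p = 0.524).

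On CM024119.1 (gene model 10386239-10450316) the promoter peaks likewise rose, with 51.2, 30.8 and 43.7 CPM post-molt, against 20.8, 20.5 and 13.2 CPM pre-molt. The other 30 peaks gave 432, 386 and 414 CPM post-molt, against 468, 588 and 361 CPM pre-molt. The difference was 1.38 (SE 0.19, edgeR adjusted p = 0.0122). On CM024134.1 (gene model 3828963-3830681) promoter and other peaks fell together but by different amounts. The promoter peak had 7.66, 11.4 and 11.7 CPM post-molt, against 38.6, 60.1 and 39.1 CPM pre-molt (log2 change -2.16, SE 0.31, edgeR adjusted p = 6.15e-05). The other 35 peaks summed to 156.9, 166.1 and 157.9 CPM post-molt, against 243, 332 and 239 CPM pre-molt (log2 change -0.76, SE 0.23, edgeR adjusted p = 0.0465). The difference was -1.41 (SE 0.20, edgeR adjusted p = 0.0122). The promoter peak of the gene model at CM024139.1:5494567-5668326 had 19.5, 13.95 and 21.2 CPM post-molt, against 48.4, 68.4 and 49.2 CPM pre-molt, a log2 change of -1.60 (SE 0.30, edgeR adjusted p = 0.000924), where its other 29 peaks had -0.48 (SE 0.24, edgeR adjusted p = 0.244). Without pre-molt replicate 3 the differences on CM024119.1, CM024134.1 and CM024139.1 each had an edgeR adjusted p of 0.053, and without post-molt replicate 2 those on CM024134.1 and CM024139.1 had 0.0653 and 0.0658. The call of the promoter sum on CM024119.1 was lost without post-molt replicate 1 (edgeR adjusted p = 0.0541) or pre-molt replicate 3 (0.0935). That of the other peaks on CM024134.1 was lost without each library except pre-molt replicate 2, with an edgeR adjusted p of up to 0.168. All 36 peaks on CM024134.1 together summed to 165.5, 180 and 178 CPM post-molt, against 298, 363 and 266 CPM pre-molt, and fell (log2 change -0.82, SE 0.22, edgeR adjusted p = 0.024), a call that was lost without each of the post-molt replicates in turn (0.0973 to 0.12) and with library totals (0.0664).

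The most compact member, on CM024146.1 (gene model 22823057-22828459), packed 30 peaks into 67.8 kb, 29 of them downstream of the start site. The sum was 406, 293 and 378 CPM post-molt, against 713, 668 and 459 CPM pre-molt. The stages did not overlap, but the sum just missed the threshold (log2 change -0.77, SE 0.24, edgeR adjusted p = 0.0532). The promoter peaks (log2 change -0.94, SE 0.30, edgeR adjusted p = 0.0498) and the other peaks (log2 change -0.81, SE 0.24, edgeR adjusted p = 0.043) passed it, both with small margins, and these calls were lost under 7 and 5 of 8 alternatives.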

How the data were processed

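ATAC-seq libraries of muscle, 3 post-molt and 3 pre-molt, were grouped by sample title. The authors aligned reads with BWA and called peaks with MACS2, per the submitters' notes. How lists were merged, how reads were counted, and any Tn5 shift, are not given in the sources used here. The study's methods, written for libraries of the molt itself, describe keeping duplicates, so PCR copies may count as reads and errors may be understated.

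The deposited table of merged peaks holds whole-number read counts, which were tested as deposited, with no filter on low counts. The authors also gave RPM values, used here only to recover library totals, and fold enrichment, a ratio used in alternatives. The authors' own log2 fold changes, p-values and q-values compare the stages and were not used. The deposited lists give a MACS2 score, a fold enrichment and the -log10 of p, used only to check that the plus signs of each library's column match its own list (100%). Peak names inside the lists carry the stage of the title but other library numbers, and replicate numbers here follow the titles. Gene models, classes and distances are the authors' annotation, and a gene name was matched for 0 identifiers.

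Tests were made with edgeR 4.0.16 (R 4.3.3; quasi-likelihood, TMM factors, stage as the only term) on the whole table: single peaks, sums per gene, promoter sums, other sums, and the peak kind by stage term. Standard errors follow from the log2 change and its F statistic. The code was tested on simulated data. CPM uses TMM factors of the gene table for sums of all peaks and of the peak table otherwise, so promoter and other sums do not add up exactly. Alternatives used DESeq2 1.42.0 and limma 3.58.1 (pseudocounts 0.5 and 1), other scalings and filters, and left out each library in turn. Tables and figures were made in Python 3.11.15 with pandas 2.3.3 and matplotlib 3.10.9.

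Within a stage, libraries differed by a chi-square per degree of freedom of 5.66 to 18.6, so none was a copy. Deviations of same-numbered libraries correlated at -0.09, -0.10 and -0.04, and those of the other pairs at -0.06 to 0.14, so no pairing by number was seen. With so few libraries per stage, these correlations cannot exclude a shared batch. Genes named were the 5 with the most peaks, the 6 with the smallest p that rose and the 6 that fell, the 4 with the smallest p for promoter against other peaks, and those with the longest and the shortest span. Within these, the promoter peak with the most reads and the peak with the smallest p were candidates for description. Members, lists and tests were chosen with earlier results of these data known.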

Additional observations from a re-analysis of the deposited data

How the results depend on the processing

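Without each library in turn, called peaks numbered 578 to 1181 (1389 with all), called sums 11 to 32 (26 with all), called promoter sums 20 to 39 (30 with all), called sums of other peaks 9 to 45 (29 with all) and genes whose promoter and other peaks differed 1 to 36 (29 with all). The lowest values came without post-molt replicate 2, except the last, which came without pre-molt replicate 3. Shares over all peaks and genes moved too. Without post-molt replicate 2 they were 3.82% of peaks, 5.5% of sums, 5.03% of promoter sums and 5.12% of sums of other peaks. Without pre-molt replicate 1, which gave the 1181 peaks and 39 promoter sums, they were 8.34% of peaks and 11.2% of promoter sums. Sums of other peaks numbered 19, 18 and 13 without post-molt replicate 1, post-molt replicate 3 or pre-molt replicate 1 (9.05%, 7.25% and 7.87% of all such sums). They numbered 45 of 320 without pre-molt replicate 2 (8.4% of all such sums). Called sums were 11 with library totals (5.54% of all genes) and 44 with the DESeq2 test (13.5% of all genes), and 25 to 35 under the other scalings, filters and choices of peaks. The replicate number as a block gave 1210 peaks and 22 sums (8.64% of all peaks and 9.96% of all sums), though no pairing of samples by number was seen. With this block the sum on CM024134.1 had an edgeR adjusted p of 0.0528. Limited to peaks within 50 kb, the sums on CM024166.1 (log2 1.00) and CM024140.1 (gene model at 7440302, log2 1.78) turned positive and were called. The cause of these shifts was not tested, apart from the fewer libraries or peaks in the fit. Of 14 called sums of named genes, 7 were called under all 15 alternatives and none changed sign. At a minimum of 25 or 40 linked peaks, 8.48% or 7.09% of sums were called, against 8.12%. With 3 crabs per stage, changes below about the spread between crabs could not be detected.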

Other observations

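Of the 320 genes, 83 were followed along the sequence by another gene with at least 30 linked peaks. In 8 of these pairs (9.64%) 1 of the sums was called and in 0 both were, and the sums had the same sign in 49 pairs (59%). Over all 17523 pairs of genes that follow each other, 1 sum was called in 16.3% and both in 3.07%, and the sign was the same in 62.1%. These shares were not tested against each other. At 2 pairs, chosen after their values were seen, a run of called peaks crossed from one gene to the next.

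On CM024160.1 the rising peaks upstream of the gene model at 17312352 continued into its neighbour (gene model 16937420-16938930, 60 peaks). Between 16945153 and 17286795, a stretch of 342 kb, 54 of 99 merged peaks were higher and 0 lower, and the called peaks of the genes were only 2.45 kb apart. The 54 peaks summed to 339, 312 and 371 CPM post-molt, against 85.8, 83.7 and 86.1 CPM pre-molt. Only peaks called higher enter this sum, so a gap between the stages is built in. The neighbour's own sum, 585, 492 and 714 CPM post-molt, against 474, 573 and 375 CPM pre-molt, was not called (edgeR adjusted p = 0.435, log2 change 0.33, SE 0.24). A promoter peak took 36.8% of the reads, with 180, 144 and 179 CPM post-molt, against 186, 311 and 165 CPM pre-molt. Its promoter and other peaks differed in change (log2 difference -1.03, SE 0.18, edgeR adjusted p = 0.0171), a call that was lost without post-molt replicate 2 or 3, without pre-molt replicate 3 and with loess-scaled counts (0.0533 to 0.0962).

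On CM024140.1 the falling peaks of the gene model at 6252986 ran on into the far end of the gene model at 7440302. Between 6300032 and 6868669, 19 of 43 merged peaks were lower and 1 was higher (edgeR adjusted p = 0.0426, a call lost under 11 of 15 alternatives). The 19 summed to 155, 165 and 166 CPM post-molt, against 494, 634 and 417 CPM pre-molt, a gap that choosing called peaks builds in. The 3 lower peaks of the second gene lay 22.2 kb from the nearest lower peak of the first. They were far from both start sites, 572 to 574 kb from the one to which they are linked. The start site of the first gene was farther still, since its own lower peaks reached 566 kb and the 3 peaks lay beyond them.

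The gene model at CM024145.1:3522657-3523490, 834 bp long, had 31 of 32 peaks in introns of another gene model. It summed to 149, 196 and 142 CPM post-molt, against 87.4, 65.5 and 93.1 CPM pre-molt (log2 change 0.98, SE 0.23, edgeR adjusted p = 0.0135), and 7 peaks were called higher. The sum was not called without post-molt replicate 2 (edgeR adjusted p = 0.0795), with library totals (0.0836) or with median centring (0.0547).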
